A study of Mus musculus with 10 samples.

Results

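Toll-like receptor 4 (TLR4) reads bacterial lipopolysaccharide (LPS) through a small set of partner proteins, and the transcripts of 10 of them were followed here by symbol among the 24411 gene rows of the deposited counts. They are the co-receptors Cd14 and Ly96, the adaptors Tirap, Myd88, Ticam2 and Ticam1, and the IRAK family members Irak4, Irak1, Irak2 and Irak3. All 10 symbols were found in every library, each as a single row.

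CD14 takes LPS from a carrier protein and hands it to MD-2, the product of Ly96, which sits on TLR4 and makes the receptor pair up. At the cell surface the paired receptor uses TIRAP to recruit MyD88, which assembles with IRAK4 and then with IRAK1 or IRAK2 to switch on NF-kappaB and MAP kinases. After uptake of the receptor into endosomes, a process that needs CD14, TRAM (Ticam2) brings in TRIF (Ticam1), which leads to interferon-beta through TBK1 and IRF3. IRAK-M, the product of Irak3, lacks kinase activity and restrains the pathway, chiefly in macrophages and their relatives.

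The groups were primary mouse microglia with LPS (PM_EPZ_LPS, n = 3) and without LPS (PM_EPZ, n = 3), and cells of the immortalised mouse microglial line BV2 with LPS (BV2_EPZ_LPS, n = 2) and without it (BV2_EPZ, n = 2). Every library, those without LPS included, came from cells given 10 uM EPZ-6438, which inhibits the histone H3K27 methyltransferase EZH2, and LPS was given at 10 ng/ml. RNA was taken after 4 h. The stated question was whether blocking EZH2 limits activation of newborn microglia, but cells left untreated by it were not analysed here, so the values below describe LPS under the inhibitor and not the inhibitor itself. Primary microglia came from 3-day-old ICR mice, with the brains of 12 animals pooled, were shaken off mixed glial cultures and were over 92% CD11b-positive, per the labels' protocols. No label gives separate cultures for the replicates, so p-values measure the spread between these samples only, and that spread may be technical.

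The libraries held 2750988 to 3684012 gene counts, of which the ribosomal RNA precursor Rn45s took 15.73% to 51.73%. PM_EPZ_LPS replicate 1 stood apart from the other libraries of its group, and its log2 levels correlated with theirs at 0.961 and 0.963 across genes, against 0.980 between the other 2. Levels are given as counts per 1e6 gene counts after TMM scaling of the library sizes (CPM). All 10 microglia and macrophage markers checked had counts in all 4 groups. They summed to 2059 to 2250 CPM in PM_EPZ_LPS and 1973 to 2204 CPM in PM_EPZ. In BV2 libraries the sums were 1050 to 1087 CPM in BV2_EPZ_LPS and 1132 to 1182 CPM in BV2_EPZ. The homeostatic marker P2ry12 was low throughout, at a mean of 2.07 CPM in PM_EPZ_LPS and 5.68 CPM in PM_EPZ. In BV2_EPZ_LPS and BV2_EPZ it was at 1.57 and 1.95 CPM. Other markers of the list behaved differently. In the same order of groups Cx3cr1 averaged 122, 130, 4.38 and 2.89 CPM, and Tmem119 1.90, 2.51, 10.5 and 15.7 CPM. The sums also hide opposite changes in primary microglia. Ptprc averaged 459 CPM with LPS against 123 CPM without it, and Csf1r 121 CPM against 315 CPM. Primary libraries also held astrocyte transcripts, with the 7 markers summing to 850 to 1524 CPM in PM_EPZ_LPS and 830 to 1377 CPM in PM_EPZ. In BV2 libraries all 7 were at 0 with LPS and 6 of 7 without it. Transcripts of the oligodendrocyte lineage (7 markers) summed to 125 to 157 CPM in PM_EPZ_LPS and 169 to 175 CPM in PM_EPZ, and those of fibroblasts and mural cells (6 markers) to 82.3 to 138 CPM in PM_EPZ_LPS and 106 to 323 CPM in PM_EPZ.

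In primary microglia Cd14, Myd88, Irak2 and Irak3 rose with LPS, and Ticam2 fell. Of the 10 genes, 9 had enough counts to be tested, and 4 were higher and 1 lower at an adjusted p under 0.05 in edgeR's quasi-likelihood test. Over all 10664 genes tested, 39.2% were called, 21.4% higher and 17.8% lower, so calls were common in this comparison. The 3 libraries of each group did not overlap for 6 of the 9, against 49.0% of all genes. The median log2 fold change was 0.63 over the 9 and -0.03 over all genes tested. The Rn45s share also differed between these groups, at 43.75%, 15.73% and 15.99% with LPS against 50.3%, 51.73% and 40.95% without it. With that share as a covariate all 5 calls held. The log2 fold changes were then 3.19 for Cd14, 3.00 for Myd88, 1.53 for Irak2, 3.47 for Irak3 and -1.28 for Ticam2. Of the libraries with LPS, only PM_EPZ_LPS replicate 1 (43.75%) had a share within the range without LPS. The adjustment leans on that library, so it cannot fully separate the share from LPS.

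In BV2 cells the same 4 genes, Cd14, Myd88, Irak2 and Irak3, were called higher and none lower among the 8 tested, against 5.20% of 9321 genes called, 3.69% higher and 1.51% lower. For 7 of the 8 the groups did not overlap, against 42.1% of all genes. The median log2 fold change was 0.83 over the 8 and -0.01 over all genes. With DESeq2 in place of edgeR, 3 of the 4 calls held, and of all genes 258 were called higher and 53 lower, against 344 and 141 with edgeR. Without BV2_EPZ_LPS replicate 1, where the lone library with LPS is assumed to vary like the others, 800 of all genes were called, against 485.

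**Figure D1:**
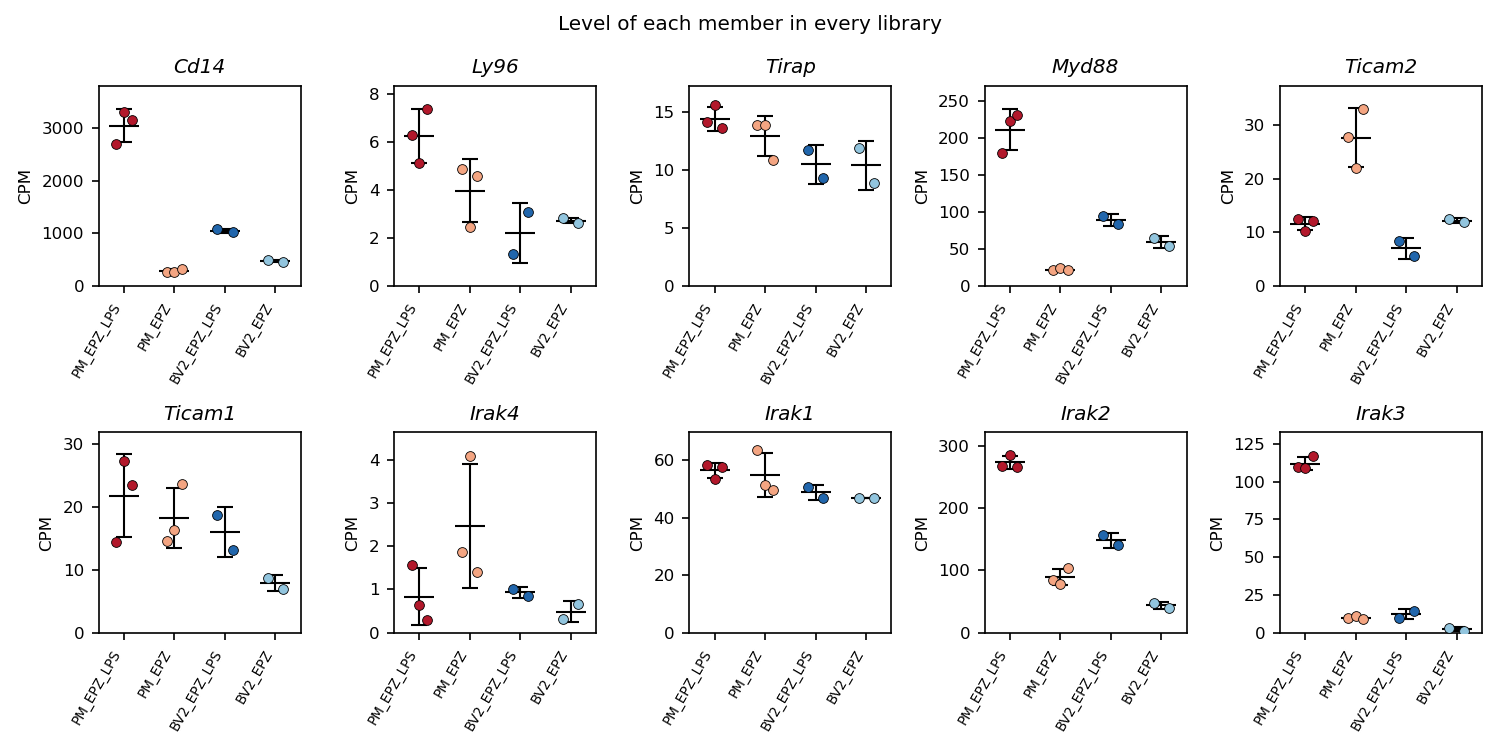
Level of each of the 10 genes in every library, in CPM on a linear axis that starts at 0, with points for libraries and bars for the group mean and SD. The Cd14 points of primary microglia with LPS lie between 2698 and 3306 CPM, above those of all other groups, while Ticam2 is higher without LPS in primary microglia.

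Cd14, on chromosome 18, had the highest level per kilobase of transcript of the 10 in every group. It stood at 2698, 3306 and 3149 CPM in the 3 primary libraries with LPS, against 264, 262 and 324 CPM without it. In BV2 cells it stood at 1080 and 1029 CPM with LPS, against 490 and 457 CPM without it. The LPS libraries lay above the others in both cell types, and primary microglia lay below BV2 cells without LPS but above them with it. The log2 fold change was 3.42 ± 0.13 (SE, adjusted p = 4.80e-14) in primary microglia and 1.19 ± 0.11 (adjusted p = 1.41e-05) in BV2 cells. In bulk samples a change in the share of cells of one type and a change in RNA per cell cannot be told apart. Of the astrocyte markers, 6 were tested for LPS in primary microglia and 1 was higher and 1 lower, and of the microglia markers 9 were tested and 1 was higher and 3 lower. Their part in the changes of Cd14 or the other genes was not tested.

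Ly96, on chromosome 1 (16688051 to 16709611, plus strand, GRCm38), was the scarce partner. It reached 6.27, 5.10 and 7.37 CPM in primary microglia with LPS, against 4.87, 2.45 and 4.57 CPM without it. The groups did not overlap, but the spread within each was wide, and the log2 fold change of 0.63 ± 0.34 did not pass the test (adjusted p = 0.159). BV2 libraries had 1.34 and 3.10 CPM with LPS, against 2.81 and 2.64 CPM without it, too few counts for the test's filter. Summed over libraries that was 15 counts with LPS and 17 without, a ratio in CPM of 0.842 with a 95% counting interval of 0.392 to 1.79.

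Per kilobase of transcript, a scale on which genes can be compared, the Cd14 level was 193 ± 48.7 times that of Ly96 in primary microglia with LPS and 29.7 ± 10.3 times without it (SD, n = 3 each). The corresponding ratios in BV2 cells were 219 ± 129 with LPS and 66.9 ± 0.454 without it (SD, n = 2 each). The groups did not overlap in either cell type, and the two-sided exact permutation p took the smallest value that the design allows, 0.10 in primary microglia and 0.33 in BV2 cells. A test of this size cannot reach 0.05. The difference between the BV2 ratios, 152, rests on few Ly96 counts and was 60.9 without BV2_EPZ_LPS replicate 1 and 243 without BV2_EPZ_LPS replicate 2. Without scaling by length the differences were 425 in primary microglia, against 164 with it, and 394 in BV2 cells.

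Myd88, the adaptor shared by most Toll-like receptors, lies on chromosome 9 (119335934 to 119341411, minus strand). Primary microglia had 179, 223 and 231 CPM with LPS, against 21.4, 23.7 and 21.1 CPM without it. BV2 cells had 95.0 and 83.7 CPM with LPS, against 65.5 and 54.2 CPM without it. Primary cells with LPS were thus the highest group and primary cells without LPS the lowest, with BV2 cells in between and both pairs of groups apart. The log2 fold change was 3.25 ± 0.14 (adjusted p = 7.11e-13) in primary microglia. In BV2 cells it was 0.61 ± 0.16 (adjusted p = 0.0429), a call that was lost with DESeq2 (adjusted p = 0.129), without BV2_EPZ replicate 1 (adjusted p = 0.0794) and without BV2_EPZ replicate 2 (adjusted p = 0.492).

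The promoter search used windows of 7 of the 10 genes from the RefSeq table (build GRCm38.p6). There were 10 windows, each covering 250 bases before and 50 after the start site. Cd14, Ly96 and Ticam2 were left out of this search, so the presence of either form below was not tested for them. The windows were searched on both strands for a kappa B form, GGG and TTTCC spaced by any 2 bases, of the kind NF-kappaB proteins bind, and for an interferon-stimulated response element form, GAAA and GAAA spaced by any 2 bases. The kappa B form was in 0 of the 10 windows and in 535 of all 32851 windows (1.63%). The interferon form was in 1 of the 10, that of Myd88, and in 1131 of all windows (3.44%). Of the genes searched, 3 were higher with LPS in both cell types. Their windows are printed below, 5′ to 3′ on the gene's strand, to show their start regions. Irak3 has 2 windows, and the one shown, nearer the gene body, lies wholly inside the gene's GENCODE span. The other, chr10:120202081-120202380, covers the upstream end of that span and is not shown. Its GC content was 46.7%, against 67.3% in the window shown. Capitals mark the match to the interferon form, whose first base lies at -40 from the RefSeq start site of Myd88. That start site lies inside the gene's GENCODE span given above, which includes a transcript starting further upstream. A match describes letters only and is not evidence of binding.
Myd88, chr9:119339969-119340268, minus strand: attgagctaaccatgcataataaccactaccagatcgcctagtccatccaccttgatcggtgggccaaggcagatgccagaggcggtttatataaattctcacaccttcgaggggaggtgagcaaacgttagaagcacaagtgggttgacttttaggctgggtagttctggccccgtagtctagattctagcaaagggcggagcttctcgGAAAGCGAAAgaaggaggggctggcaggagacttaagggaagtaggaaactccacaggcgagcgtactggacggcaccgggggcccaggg
Irak2, chr6:113638217-113638516, plus strand: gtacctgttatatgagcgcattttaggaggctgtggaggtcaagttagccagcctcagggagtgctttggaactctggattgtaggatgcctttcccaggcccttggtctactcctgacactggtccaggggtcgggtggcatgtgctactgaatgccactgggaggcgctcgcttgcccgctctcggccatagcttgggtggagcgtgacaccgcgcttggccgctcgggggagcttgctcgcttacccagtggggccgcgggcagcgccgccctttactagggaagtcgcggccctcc
Irak3, chr10:120201548-120201847, minus strand: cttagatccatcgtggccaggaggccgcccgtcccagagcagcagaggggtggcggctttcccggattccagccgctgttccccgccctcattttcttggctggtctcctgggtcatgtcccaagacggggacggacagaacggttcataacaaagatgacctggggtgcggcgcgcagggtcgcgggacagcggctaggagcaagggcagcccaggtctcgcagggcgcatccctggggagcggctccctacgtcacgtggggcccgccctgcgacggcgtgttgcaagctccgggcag

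Tirap, the bridging adaptor that places MyD88 at the membrane, lies on chromosome 9 (35184551 to 35200291, minus strand) and was not called in either cell type. It had 14.1, 15.6 and 13.6 CPM in primary microglia with LPS, against 13.9, 13.9 and 10.9 CPM without it. The 2 BV2 libraries with LPS had 11.7 and 9.30 CPM, against 11.9 and 8.92 CPM without it. Values overlapped in both cell types, with log2 fold changes of 0.16 ± 0.22 (adjusted p = 0.606) in primary microglia and 0.04 ± 0.28 (adjusted p = 0.978) in BV2 cells.

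Ticam2 was the only one of the 10 genes called lower with LPS in primary microglia. Its level was 12.5, 10.2 and 12.2 CPM with LPS, against 27.7, 22.1 and 33.1 CPM without it. In BV2 cells it was 8.39 and 5.63 CPM with LPS, against 12.5 and 11.9 CPM without it. Every LPS library lay below every library without LPS of its cell type. The log2 fold change was -1.26 ± 0.21 (adjusted p = 8.11e-05) in primary microglia and -0.78 ± 0.30 (adjusted p = 0.229, not called) in BV2 cells. Ticam2, on chromosome 18, shares 838 of its 5792 exonic bases (14.5%) with Tmed7 on the same strand in GENCODE M21, so part of its reads could not be assigned to 1 gene if the counting used a like annotation. Tmed7 had 161, 198 and 213 CPM in primary microglia with LPS, against 141, 139 and 168 CPM without it. Its log2 fold change was 0.34 ± 0.13 (adjusted p = 0.0408), with groups that overlapped.

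Ticam1, on chromosome 17 (56269319 to 56276786, minus strand), encodes TRIF, the adaptor that acts after TRAM. Primary libraries had 14.5, 27.4 and 23.5 CPM with LPS, against 14.6, 16.4 and 23.6 CPM without it. BV2 libraries had 18.8 and 13.2 CPM with LPS, against 8.73 and 6.94 CPM without it. The groups overlapped in primary microglia and were apart in BV2 cells. The log2 fold change was 0.26 ± 0.24 (adjusted p = 0.433) in primary microglia and 1.05 ± 0.29 (adjusted p = 0.0574) in BV2 cells, neither of them called. Without PM_EPZ_LPS replicate 1 the primary value was 0.47 and was called (adjusted p = 0.0424), and with the Rn45s share as a covariate it was -0.49 (adjusted p = 0.219). The BV2 value was called without BV2_EPZ_LPS replicate 2 (1.30, adjusted p = 0.00252) and without the low-count filter (adjusted p = 0.00695).

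Irak4, the kinase that starts the cascade on the MyD88 scaffold, lies on chromosome 15 (94543643 to 94581815, plus strand) and had the lowest level per kilobase of the 10 in every group. Its counts were 4, 2 and 1 in primary microglia with LPS, against 5, 10 and 4 without it, and 3 and 3 in BV2 cells with LPS, against 1 and 2 without it. These were too few for the test's filter, and the primary groups overlapped. Summed over libraries, the ratio in CPM with LPS to without was 0.318 in primary microglia (95% counting interval 0.113 to 0.790) and 1.91 in BV2 cells (0.408 to 11.8). Such intervals cover counting error only, and with no filter the primary log2 fold change was -1.58 ± 0.67 (adjusted p = 0.0656).

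Irak1, an IRAK4 substrate that passes the signal to TRAF6, lies on chromosome X (74013914 to 74023918, minus strand) and shares 141 of its 4716 exonic bases with Mir5132 and Mir718. It was measured at 58.4, 53.6 and 57.8 CPM in primary microglia with LPS, against 63.7, 51.5 and 49.6 CPM without it. It was measured at 50.7 and 47.0 CPM in BV2 cells with LPS, against 46.8 and 46.9 CPM without it. The groups overlapped in primary microglia and were barely apart in BV2 cells. The log2 fold changes were 0.03 ± 0.14 (adjusted p = 0.885) in primary microglia and 0.09 ± 0.16 (adjusted p = 0.884) in BV2 cells.

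Irak2, the kinase known for sustaining late NF-kappaB signalling, lies on chromosome 6 (113638467 to 113695026, plus strand). Its level was 268, 285 and 266 CPM in primary microglia with LPS, against 85.0, 78.1 and 104 CPM without it. BV2 cells had 157 and 140 CPM with LPS, against 47.4 and 40.0 CPM without it. The groups were far apart in both cell types, by a like factor. The log2 fold change was 1.60 ± 0.12 (adjusted p = 3.34e-09) in primary microglia and 1.80 ± 0.15 (adjusted p = 9.75e-06) in BV2 cells.

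Irak3, the inhibitory member, lies on chromosome 10 (120141648 to 120202130, minus strand). Primary microglia held 110, 109 and 117 CPM with LPS, against 9.37, 11.0 and 9.15 CPM without it. BV2 cells held 9.74 and 14.4 CPM with LPS, against 3.12 and 1.32 CPM without it. BV2 cells with LPS thus reached about the level that primary microglia had without it. The log2 fold change was 3.50 ± 0.15 (adjusted p = 6.30e-13) in primary microglia, the highest of the 9 genes tested there, and 2.46 ± 0.42 (adjusted p = 0.00357) in BV2 cells, the highest of the 8. The BV2 value rests on few counts without LPS and was 3.21 without BV2_EPZ replicate 1 and 2.00 without BV2_EPZ replicate 2, called in both cases.

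**Figure D2:**
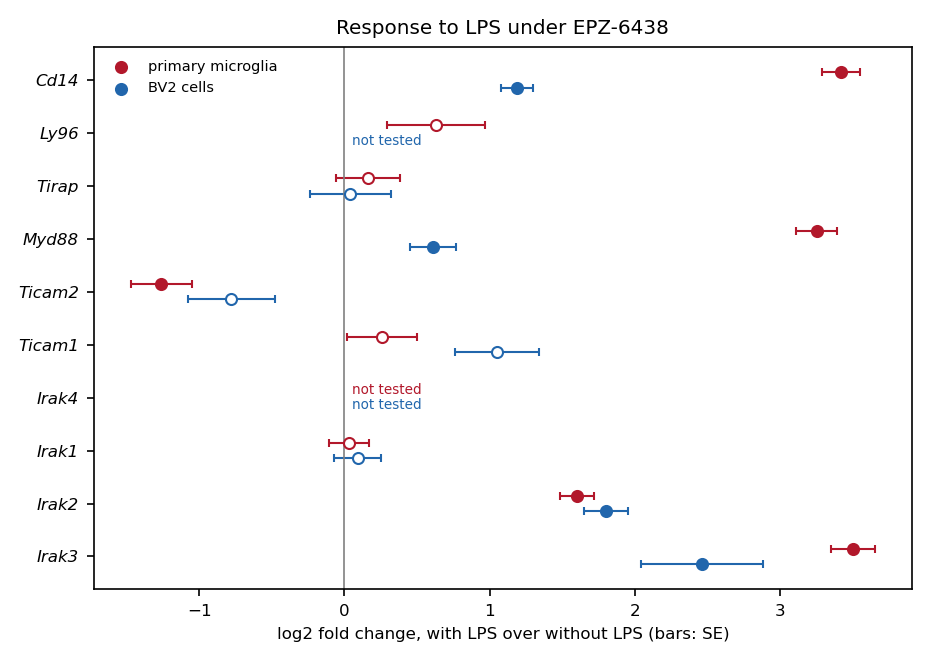
Log2 fold change with LPS of each tested gene in primary microglia and in BV2 cells, with bars for the standard error and filled points for adjusted p under 0.05. Irak3, Cd14 and Myd88 lie above 3 in primary microglia, while Irak2 lies close to its BV2 value.

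The size of the LPS response differed between the cell types for 2 of the 9 genes tested, Cd14 and Myd88, against 12.2% of 11626 genes called in the same contrast (8.65% higher and 3.54% lower in primary microglia minus BV2). The Cd14 response was larger in primary microglia by 2.28 ± 0.18 on the log2 scale (adjusted p = 1.65e-10), and the Myd88 response by 2.69 ± 0.22 (adjusted p = 5.04e-10). The difference for Irak3 was 1.09 ± 0.47 and did not pass (adjusted p = 0.152), and it ran from 0.35 without BV2_EPZ replicate 1 to 1.56 without BV2_EPZ replicate 2. For Irak2 it was -0.15 ± 0.20 (adjusted p = 0.797), with a 95% interval of -0.55 to 0.25. Ticam2 differed by -0.44 ± 0.38 (adjusted p = 0.586) and Ticam1 by -0.74 ± 0.41 (adjusted p = 0.301), so the call of Ticam2 in primary microglia and not in BV2 cells is not shown to be a different response. Ly96, Tirap and Irak1 had differences of 0.89 ± 0.65, 0.16 ± 0.37 and -0.02 ± 0.22, none called.

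Levels also differed by cell type. Without LPS, 6 of the 9 tested genes differed between primary microglia and BV2 cells, 4 higher and 2 lower, against 74.1% of 11626 genes called (41.5% higher and 32.5% lower). Higher in primary microglia were Irak3 (log2 fold change 2.11 ± 0.35, adjusted p = 6.11e-06), Ticam1 (1.21 ± 0.31, adjusted p = 0.00106), Ticam2 (1.18 ± 0.25, adjusted p = 1.10e-04) and Irak2 (1.03 ± 0.16, adjusted p = 1.49e-06). The Irak3 value was 2.84 without BV2_EPZ replicate 1 and 1.63 without BV2_EPZ replicate 2. Lower in primary microglia were Myd88 (-1.44 ± 0.17, adjusted p = 2.13e-08) and Cd14 (-0.74 ± 0.13, adjusted p = 7.79e-06). The groups did not overlap for 7 of the 9, against 84.1% of all genes, so these shares were near those of genes at large. Irak4, not tested, summed to 19 counts in primary microglia and 3 in BV2 cells, a ratio in CPM of 4.96 (95% counting interval 1.46 to 26.2). Without the low-count filter its log2 fold change was 2.20 ± 0.84 (adjusted p = 0.0177).

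With LPS, 6 of the 9 were higher in primary microglia than in BV2 cells and none lower, against 73.8% of 11626 genes called (43.1% higher and 30.7% lower). Cd14 (1.53 ± 0.13, adjusted p = 3.83e-11) and Myd88 (1.24 ± 0.15, adjusted p = 1.92e-08) had the opposite sign to that without LPS. Irak3 had the largest gap of the 9 (3.20 ± 0.20, adjusted p = 6.44e-14), and Irak2 differed by 0.88 ± 0.14 (adjusted p = 2.48e-06). Ly96 was higher by 1.44 ± 0.43 (adjusted p = 0.00398), a call lost without BV2_EPZ_LPS replicate 1 (1.00, adjusted p = 0.0740). Ticam2 was higher by 0.74 ± 0.29 (adjusted p = 0.0226), a call lost with DESeq2 (adjusted p = 0.0752) and without PM_EPZ_LPS replicate 3 (adjusted p = 0.0516) or BV2_EPZ_LPS replicate 2 (0.46, adjusted p = 0.248). Ticam1 was not called (0.47 ± 0.27, adjusted p = 0.112) but was without PM_EPZ_LPS replicate 1 (0.64, adjusted p = 0.0140). For 8 of the 9 the groups did not overlap, against 80.1% of all genes.

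**Figure D3:**
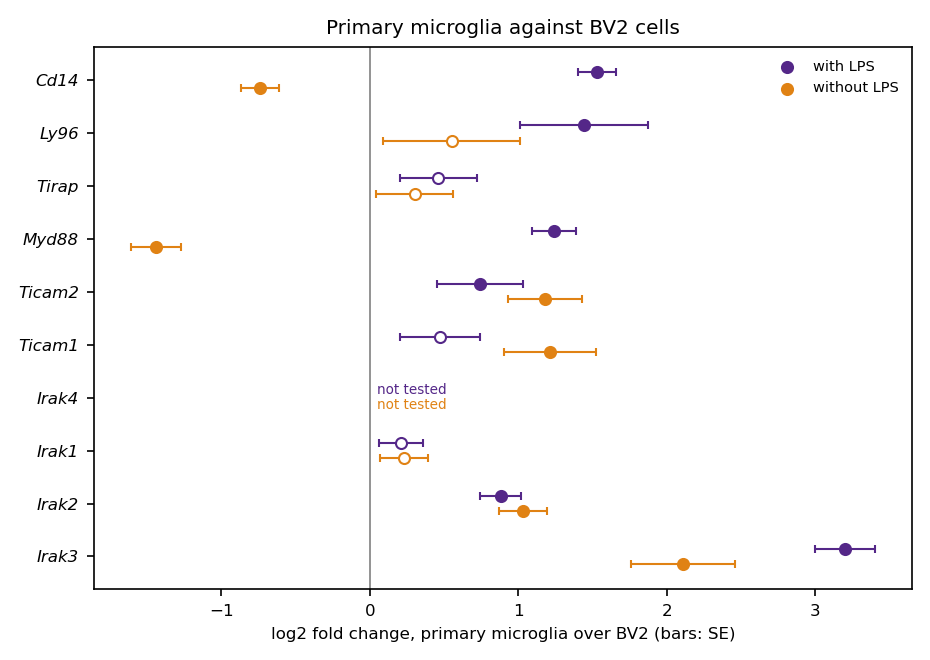
Log2 fold change of primary microglia over BV2 cells for each tested gene, with LPS and without it, with bars for the standard error and filled points for adjusted p under 0.05. Cd14 and Myd88 lie below 0 without LPS and above 0 with it.

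Per kilobase of transcript, the order of the genes changed with LPS in primary microglia. With LPS the levels ran Cd14 (1859 ± 192 CPM per kb), Myd88 (108 ± 14.2), Irak2 (85.4 ± 3.30), Irak3 (36.3 ± 1.43) and Irak1 (14.8 ± 0.684), each clear of the next in all 3 libraries, then Ly96, Ticam1, Tirap, Ticam2 and Irak4. Without LPS they ran Cd14 (172 ± 21.5 CPM per kb), Irak2 (27.8 ± 4.16), Irak1 (14.3 ± 1.99) and Myd88 (11.3 ± 0.732), then Ticam2, Ly96 and Ticam1, whose libraries overlapped, then Irak3, Tirap and Irak4. Myd88 stood at the second place with LPS and at the fourth without it, and Ticam2 at the ninth place with LPS and at the fifth without it. Neighbours that overlapped with LPS were Ly96 with Ticam1, and Tirap with Ticam2.

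In BV2 cells the order with LPS was Cd14 (642 ± 22.1 CPM per kb), Irak2 (46.5 ± 3.92) and Myd88 (45.6 ± 4.09), the last 2 overlapping, then Irak1 (12.7 ± 0.671). Without LPS it was Cd14 (289 ± 14.2 CPM per kb), Myd88 (30.5 ± 4.08), Irak2 (13.7 ± 1.64) and Irak1 (12.2 ± 0.0264), and no neighbouring pair among these 4 overlapped. Irak3 was at 3.89 ± 1.06 CPM per kb with LPS, where its libraries overlapped those of its neighbours Ticam1 and Ly96, and at 0.717 ± 0.410 without it, below all but Irak4.

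Shares of a summed level do not depend on how libraries are scaled. Myd88 made up 89.1% ± 0.640 of the summed CPM per kb of the 4 adaptors in primary microglia with LPS, against 42.3% ± 4.79 without it (SD, n = 3 each). The other 3 adaptors all had smaller shares, although only Ticam2 was called lower in level. Ticam2 made up 2.33% ± 0.526 with LPS, against 24.5% ± 3.68 without it, Ticam1 5.94% ± 1.19 against 22.5% ± 4.20, and Tirap 2.63% ± 0.372 against 10.6% ± 2.07. In BV2 cells Myd88 already held most of the sum, at 83.1% ± 2.01 with LPS against 79.7% ± 0.139 without it (SD, n = 2 each), and Ticam2 held 3.01% ± 0.503 against 7.61% ± 0.749. Ticam1 had the larger BV2 share with LPS, 9.68% ± 1.29 against 6.82% ± 0.207. None of these pairs of groups overlapped, at the smallest exact permutation p each design allows (0.10 and 0.33, two-sided).

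Within the IRAK family the share of Irak3 in primary microglia was 26.3%, 25.5% and 27.8% with LPS, against 6.46%, 8.36% and 6.06% without it. Irak2 had the largest share, at 62.1%, 64.3% and 61.1% with LPS against 56.9%, 57.3% and 66.6% without it, and these groups overlapped (exact permutation p = 0.600, two-sided). Irak1 held 10.8% ± 0.640 with LPS against 31.2% ± 4.50 without it. In BV2 cells it was Irak2 that took the larger share with LPS, 74.7% and 71.8% against 52.7% and 49.3%, while Irak1 held 20.1% ± 0.0710 with LPS against 45.8% ± 3.44 without it. Irak3 held 4.77% and 7.62% of the BV2 sum with LPS, against 3.58% and 1.68% without it.

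**Figure D4:**
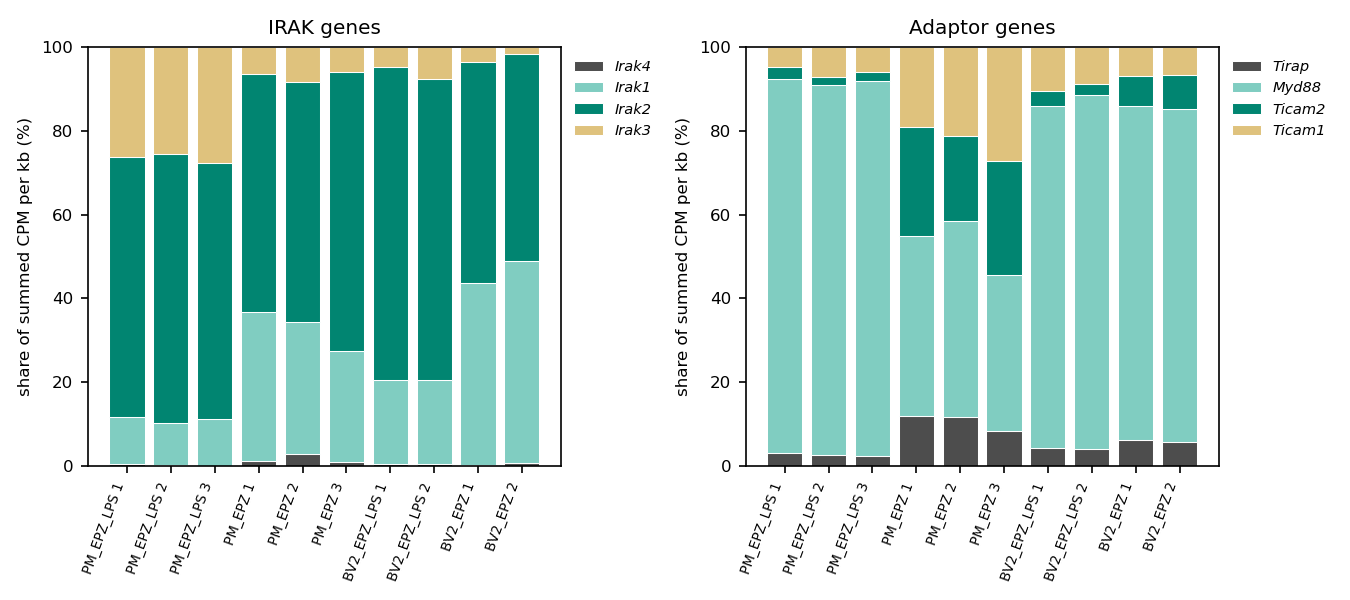
Share of each gene in the summed CPM per kb of the 4 IRAK genes and of the 4 adaptor genes, in percent, with 1 stacked bar per library. On average Irak3 makes up 26.5% of the IRAK sum in primary microglia with LPS and 6.96% without it, and Myd88 makes up 89.1% of the adaptor sum with LPS and 42.3% without it.

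The transcript of the receptor these proteins serve was not called for LPS in either cell type. Tlr4 averaged 40.2 ± 8.38 CPM in primary microglia with LPS, against 44.1 ± 10.3 CPM without it, a log2 fold change of -0.14 ± 0.19 (adjusted p = 0.593). It averaged 19.3 ± 4.54 CPM in BV2 cells with LPS, against 37.0 ± 12.6 CPM without it, a log2 fold change of -0.89 ± 0.27 (adjusted p = 0.0948). The BV2 groups did not overlap, at 16.1 and 22.5 CPM with LPS against 28.1 and 45.9 CPM without it. Tlr4 was higher in primary microglia than in BV2 cells with LPS (1.06 ± 0.26, adjusted p = 0.00153). Without LPS that difference was not called (0.26 ± 0.24, adjusted p = 0.335). Lbp, which encodes the carrier that delivers LPS to CD14, was at 28.7 ± 11.8 CPM in primary microglia with LPS and 22.9 ± 7.54 CPM without it. It had 0 counts in every BV2 library, which allows up to 3 counts, or 0.845 to 1.01 CPM, in a library. Primary libraries also held astrocyte transcripts, and which cells the Lbp reads came from was not tested.

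Beyond the 10 genes, 35 other genes of the pathway were counted by list, and 31 had enough counts to be tested in each cell type. In primary microglia 15 rose and 2 fell, against 21.4% of all genes called higher and 17.8% lower. In BV2 cells 6 rose and none fell, against 3.69% of all genes called higher and 1.51% lower. The 6 receptor and chaperone genes included 1 that rose in primary microglia, Cd180, a TLR4 relative that pairs with MD-1 (1.84 ± 0.15, adjusted p = 4.34e-09), and 1 that fell, Cnpy3, a chaperone of Toll-like receptors (-1.03 ± 0.15, adjusted p = 1.92e-05). None of the 5 tested in BV2 cells passed. Of 14 tested genes downstream of MyD88, 9 rose and 1 fell in primary microglia, with Peli1 (3.60 ± 0.13, adjusted p = 2.40e-14) and Pik3ap1 (3.29 ± 0.15, adjusted p = 1.55e-12) at the top and Peli2 (-1.72 ± 0.19, adjusted p = 5.68e-07) falling. Peli1 and Peli2 encode Pellino ubiquitin ligases that act on IRAK proteins, and Pik3ap1 encodes BCAP, an adaptor to PI3 kinase. In BV2 cells 2 of 14 rose, Map3k8, the kinase TPL2 (1.61 ± 0.26, adjusted p = 0.00233), and Peli1 (1.26 ± 0.21, adjusted p = 0.00257).

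Of the 6 genes downstream of TRIF, 3 rose in primary microglia and 2 in BV2 cells. Of all genes tested, 21.4% were called higher in primary microglia and 3.69% in BV2 cells. Ikbke, the kinase IKK-epsilon, rose by 3.88 ± 0.14 on the log2 scale in primary microglia (adjusted p = 2.02e-14) and by 2.05 ± 0.16 in BV2 cells (adjusted p = 6.53e-06). Tank, a scaffold of TBK1, rose by 2.26 ± 0.17 in primary microglia (adjusted p = 2.06e-09) and by 1.20 ± 0.29 in BV2 cells (adjusted p = 0.0340), where the call was lost with DESeq2 (adjusted p = 0.154) and without BV2_EPZ replicate 1 (adjusted p = 0.0521) or BV2_EPZ_LPS replicate 2 (0.78, adjusted p = 0.169).

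Among the inhibitors 2 of 5 tested rose in primary microglia and 2 of 6 in BV2 cells, the same pair, Tnfaip3 and Tnip1. The shares of all genes called higher were 21.4% in primary microglia and 3.69% in BV2 cells. Tnfaip3, which encodes the ubiquitin-editing enzyme A20, rose by 5.52 ± 0.15 in primary microglia (adjusted p = 5.45e-16) and by 3.01 ± 0.18 in BV2 cells (adjusted p = 4.48e-07). Tnip1, an A20 partner, was uneven across primary libraries, with 87.8, 36.7 and 25.5 CPM with LPS against 8.99, 7.77 and 6.69 CPM without it. Its primary log2 fold change of 2.63 ± 0.63 (adjusted p = 0.0264) was no longer called with no low-count filter (adjusted p = 0.0578) or without PM_EPZ replicate 1, 2 or 3 (adjusted p = 0.0757, 0.0845 and 0.0842). In BV2 cells it was 2.98 ± 0.27 (adjusted p = 1.78e-05), and in the fit of all 10 libraries that call was lost (adjusted p = 0.0800).

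**Figure D5:**
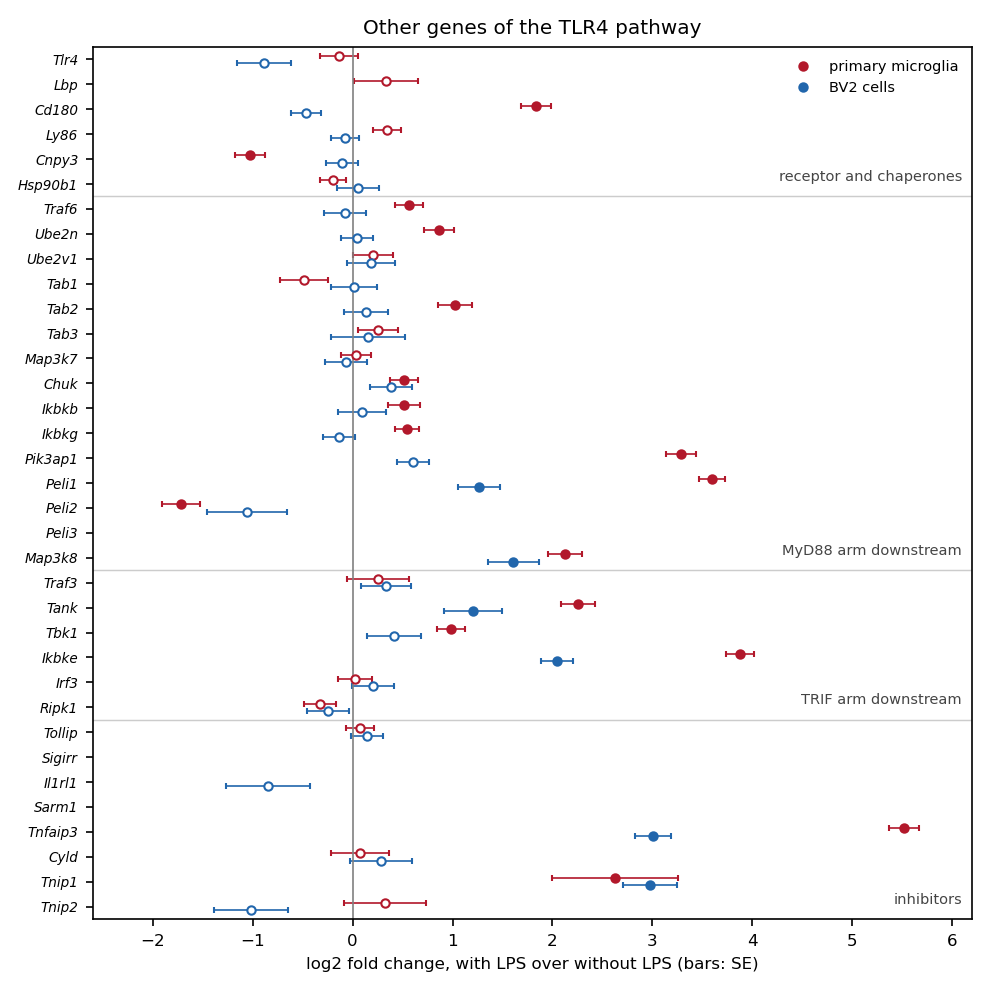
Log2 fold change with LPS of the other pathway genes, by list, in primary microglia and BV2 cells, with bars for the standard error, filled points for adjusted p under 0.05 and no point for a gene not tested. Tnfaip3 is the highest in both cell types, at 5.52 in primary microglia and 3.01 in BV2 cells.

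For the 4 genes higher with LPS in both cell types, the genes with the most similar pattern over the 4 group means were looked up among 11617 genes, as a description. Likeness was the root mean square difference of centred log2 means, where a smaller value is closer. Nearest to Cd14 were Nfkb1 (0.15), Car13 (0.19) and Plaur (0.19), against a median of 1.49 over all genes. Nearest to Myd88 were Tpst1 (0.14), Calcrl (0.16) and Bst2 (0.20), against a median of 1.37. Bst2, the interferon-inducible tetherin gene, averaged 221 ± 15.2 CPM in primary microglia with LPS, 28.9 ± 6.36 CPM without it, 94.4 ± 3.49 CPM in BV2 cells with LPS and 86.8 ± 0.307 CPM without it.

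Nearest to Irak2 were Kdm4a (0.12), Xylt2 (0.12) and 3110043O21Rik (0.16), against a median of 1.18. Kdm4a, a histone demethylase gene, averaged 117 ± 13.5 CPM in primary microglia with LPS, 41.5 ± 10.0 CPM without it, 76.9 ± 0.409 CPM in BV2 cells with LPS and 18.0 ± 0.736 CPM without it. Nearest to Irak3 were Tnfrsf1b (0.14), Zfp811 (0.16) and Cflar (0.20), against a median of 1.94. Tnfrsf1b, the gene of TNF receptor 2, averaged 1969 ± 136 CPM in primary microglia with LPS, 229 ± 4.65 CPM without it, 257 ± 37.7 CPM in BV2 cells with LPS and 47.4 ± 2.60 CPM without it. Like Irak3, it reached in BV2 cells with LPS about its level in primary microglia without LPS.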

How the data were processed

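RNA from 10 libraries was depleted of ribosomal RNA and prepared with a directional kit, per the labels' protocols. CASAVA 1.8.2, Trimmomatic 0.33, STAR 2.5.1, the mm10 build and DESeq2 are named by the submitters' processing notes, with the gene annotation not given in the sources used here. Counts as deposited are whole reads for each gene symbol, in the layout of STAR's counter. The reverse-strand column was used, since just 0.6821% to 2.215% of the strand-assigned reads were opposite. Reads assigned to no gene (70.43% to 79.51%) were left out.

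Counts were tested in R 4.3.3 with edgeR 4.0.16 (TMM scaling, filterByExpr with a minimum count of 10 and total of 15, robust quasi-likelihood F test, Benjamini-Hochberg over all genes tested). LPS was tested within each cell type. The difference of responses and the cell-type contrasts came from 1 fit of all 10 libraries, which also scaled the CPM. CPM per kb used the longest protein-coding transcript in GENCODE M21 (all 92 listed symbols matched), and nearest patterns used a prior count of 2. Scripts were tested on simulated data, with changes put into genes of higher counts. A log2 change of 1 was recovered for 85.0% of changed genes in primary microglia and 80.0% in BV2 cells. For the difference of responses it was 43.0%, so a difference of that size can go uncalled. A log2 change of 2 was recovered for 100%, 100% and 95.0%. False calls made up 6.57%, 5.76% and 4.83% of calls. DESeq2 1.42.0, other scaling, no filter, the unstranded column, leaving out Rn45s, an Rn45s covariate, a replicate block and leave-one-out were alternatives. The members, gene lists and naming rules (all 10 members, and the 2 largest called rises and falls of each pathway list) were chosen with earlier results of these data known. Each library counted once. No 2 replicates agreed within sampling noise (the ratio of chi-square to its degrees of freedom was 1.52 or more, with Rn45s included). That check cannot show that the libraries came from separate cultures.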

Additional observations from a re-analysis of the deposited data

Results flagged for a closer look

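In edgeR's fit of all 10 libraries, the LPS responses of 2 of the 9 genes tested differed between the cell types. The test was of the difference itself, and it called 12.2% of 11626 genes. Groups with and without LPS did not overlap for 49.0% of all genes in primary microglia and 42.1% in BV2 cells. The Cd14 response in primary microglia exceeded that in BV2 cells by 2.28 on the log2 scale (adjusted p = 1.65e-10), with all 3 primary libraries with LPS above all 3 without it and both BV2 libraries with LPS above both without it. The Myd88 response exceeded that in BV2 cells by 2.69 on the log2 scale (adjusted p = 5.04e-10), with the same count of libraries. Both calls held when any 1 library was left out.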

How the results depend on the processing

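Of 646 recomputed log2 fold changes of the genes tested, which leave out Irak4, 621 kept their direction and side of the threshold. For the cell-type contrasts these include fits that dropped a library of neither group compared, where little change could arise. Genes called for LPS in BV2 cells numbered 485, against 311 with DESeq2 and 353 to 800 when 1 library was left out (800 without BV2_EPZ_LPS replicate 1). Small values changed sign: Ticam1 in primary microglia was -0.49 with the Rn45s covariate, and the Irak1 difference of responses was 0.00 on the unstranded column. With 1 library left out, the log2 fold change of Irak1 ran from -0.04 to 0.15 in primary microglia, and of Tirap from -0.13 to 0.28 in BV2 cells. The difference of responses ran from -0.06 to 0.35 for Tirap and from -0.20 to 0.07 for Irak1, and the BV2 difference in Irak4 share ran from -0.334 to 0.102 percentage points. Shares without length scaling kept their direction, with the Myd88 difference at 54.0 points in primary microglia. Same-numbered libraries did not deviate together in every pair (r = 0.20, -0.11 and 0.23 in primary microglia). Differently numbered primary pairs had r from -0.34 to 0.23. In BV2 cells r was 0.22 in both pairs, which must be equal with 2 libraries in each group. No label pairs the libraries, so the fits without a block were kept. With the replicate block 5 of the 10 genes were called for LPS in primary microglia and 5 in BV2 cells, and 4479 and 596 of all genes, against 4178 and 485. The block gave an adjusted p of 0.0242 for Ticam1 with LPS in BV2 cells and of 0.0506 for Ticam2 in primary microglia over BV2 cells with LPS. Counts of Irak4 in both cell types, and of Ly96 in BV2 cells, were too low for the filter. The cause of each of these shifts was not tested.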

Other observations

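PM_EPZ_LPS replicate 2 had 102 reads on the strand opposite to Cd14 (0.975% of its stranded Cd14 reads), against 0% to 0.254% in the other 9 libraries. Over all 10 genes the same library had 1.07% of stranded reads on the opposite strand, and over all genes 2.215%, the highest of the 10 libraries.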
